A study of Caenorhabditis elegans with 60 samples.

Results

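The microRNA arms described here are miR-240-5p, miR-232-5p, miR-789, miR-4814-3p, miR-78, miR-4936 and miR-2214-3p of Caenorhabditis elegans. They were chosen by their values: in wild type animals these 7 arms were called higher in periodate-oxidized than in untreated small RNA libraries (limma, adjusted p under 0.05). The deposited oxidation tables list 375 microRNA rows, which hold 368 distinct arms once repeated rows, miR-789 among them, are counted once, and 212 of these arms passed the filter on low values in wild type. The increase in wild type is therefore the basis of the choice. Its values are given below as a description, without a test.

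Most microRNAs are cut from hairpin precursors by Dicer, and the arm names 5p and 3p give the side of the hairpin from which a strand comes. Animal microRNAs usually keep an unmodified last nucleotide, whereas HENN-1, a methyltransferase related to plant HEN1, adds a methyl group to the last nucleotide of other small RNAs. Its known substrates are piRNAs, the partners of the PIWI protein PRG-1, and the 26G-RNAs of ERGO-1. Sodium periodate destroys an unmodified RNA end for adapter ligation and spares a methylated one, so a methylated RNA takes a larger share of an oxidized library. RDE-1 is the Argonaute that receives primary small interfering RNAs from foreign double-stranded RNA, and miR-243 is a microRNA known to load into it.

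The study followed small RNAs with and without HENN-1. Of its 60 libraries, 32 were used. The oxidation set held 3 untreated and 3 oxidized libraries of wild type (N2) and of rde-1(ne219) whole animals, all treated with polyphosphatase so that RNAs with a 5′ triphosphate were also captured. The RDE-1 set held 2 inputs and 2 immunoprecipitates (IPs) each of gravid adults with the rde-1 allele cmp133, which tags RDE-1 with gfp, loxP and 3xFLAG, and of animals that carried henn-1(pk2295) as well, aged 68 h at 20 C. The gonad set held 3 wild type and 3 henn-1(pk2295) small RNA libraries, and as many mRNA libraries, of gonads dissected from gravid adults at 68 to 70 h. Every animal of the RDE-1 set carried the tagged rde-1, and no IP from untagged animals was used here. The IP libraries are titled as GFP IPs, while their descriptions name an anti-FLAG antibody. Nothing in the labels says that replicates came from separate cultures, and the spread that p-values rest on may therefore be technical.

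The labels conflict on stage in the oxidation set. Untreated libraries are given as L4 larvae at 52 h, and oxidized ones as gravid adults at 68 h in one field and as L4 larvae in another. If the first field is right, stage and oxidation cannot be told apart. The miR-35 family, which is abundant in the adult germline and embryos, took 0.347% to 0.422% of the microRNA signal in untreated and 0.494% to 0.576% in oxidized wild type libraries. In the gravid adult inputs of the RDE-1 set it took 14.2% to 34.5%. The let-7 family with lin-4 took 6.83% to 7.35% in untreated and 8.96% to 10.9% in oxidized wild type libraries. A list of microRNAs of muscle, glia, neurons and other body tissues took 2.10% to 2.40% and 4.62% to 6.39%.

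Recovered reads ranged from 6310340 to 13611252 per oxidation library and from 4215118 to 8745075 per gonad library. The depth of the RDE-1 libraries is unknown. One of them stood apart: henn-1 input 2 listed 232 of 368 arms at 0, against 63 to 121 in the other 3 inputs. Results that rest on it are given below with it, and many but not all of them also without it. In the gonad mRNA libraries, the henn-1 transcript was 2244 on average in wild type and 237 in henn-1 (n = 3 per group).

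Most microRNA arms fell on oxidation, and the 7 arms are those that were called higher. In wild type, 3.3% of tested microRNA arms were called higher, which are these 7, and 90.6% were called lower, with a median log2 difference of -3.44 over the class. Over all 12380 tested features 34.9% were called higher. piRNAs had a median of 2.06 and ERGO-1 class loci one of 3.34. The log2 differences of the 7 arms lay between 1.68 and 3.56, with a median of 2.56, inside the 5th to 95th percentiles of piRNAs (-0.55 to 4.55). Every difference in this text is on the scale of log2(normalized signal + 1), which understates the change of low arms. Bulk libraries cannot tell fewer cells with an RNA from less RNA per cell. The direction in wild type rests on the scaling: the deposited values put the median of all features at -0.32 and 44.9% of calls on the higher side. With equal piRNA totals that median was -3.76 with 4.52% of calls higher, and the 7 arms had a median of -0.75. With equal microRNA totals it was 3.16 with 99.4% of calls higher, and the 7 arms had a median of 5.68.

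miR-240-5p comes from a hairpin whose gene lies within 2 kb of mir-786 in RefSeq (WBcel235). A role in the defecation rhythm is known for this pair of genes together, and is not assigned here to mir-240 itself. The normalized signal of miR-240-5p was 265, 279 and 279.6 in the untreated wild type libraries and 2721, 3515 and 3579.7 in the oxidized ones. The groups did not overlap, and the means differed 11.9-fold (log2 3.56, SE 0.14). Its rank among microRNA arms went from 119 of 368 to 28 of 368. The neighbouring miR-786-3p went the other way, from 7839 to 343 (log2 -4.52, SE 0.13, limma adjusted p = 4.79e-08).

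miR-232-5p was 36.0, 61.8 and 38.9 in the untreated wild type libraries and 165, 175 and 250.0 in the oxidized ones (log2 2.10, SE 0.31). miR-789, which RefSeq gives from 2 genes, mir-789.1 and mir-789.2, was 5.41, 5.54 and 4.40 before oxidation and 26.6, 24.8 and 21.8 after it (log2 2.06, SE 0.55). The untreated values rest on 6 reads in each library. miR-4814-3p was 8.11, 4.61 and 6.60 in untreated and 56.7, 62.0 and 21.03 in oxidized libraries (log2 2.56, SE 0.61). For each of these 3 arms the lowest oxidized library lay above the highest untreated one.

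miR-78 was the most abundant of the 7 arms in untreated wild type animals. Its signal was 482, 553 and 588 untreated and 4306, 6175 and 6600.3 oxidized, so the means differed 10.5-fold (log2 3.37, SE 0.17). miR-4936 was 58.6, 71.1 and 85.8 untreated and 174, 281 and 248 oxidized (log2 1.68, SE 0.27), the smallest difference of the 7. Neither pair of groups overlapped. The authors' table of the RDE-1 set marks the names of both with the word piRNA.

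miR-2214-3p, marked as dead in that table with no meaning given in the sources used here, was the arm just inside the threshold. It was 12.6, 1.85 and 1.47 in untreated libraries (14, 2 and 2 reads) and 74.5, 14.5 and 28.8 in oxidized ones (log2 2.84, SE 0.91). The lowest oxidized library was 14.5 and the highest untreated one 12.6, so the groups came close to each other. Just outside the threshold stood miR-5549-3p, with 7, 0 and 1 reads untreated and 1, 18 and 43 reads oxidized (log2 2.40). miR-789, miR-4814-3p and miR-2214-3p had untreated means of 5.11, 6.44 and 5.31 and passed the filter on a mean of 10 only through the oxidized libraries.

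**Figure D1:**
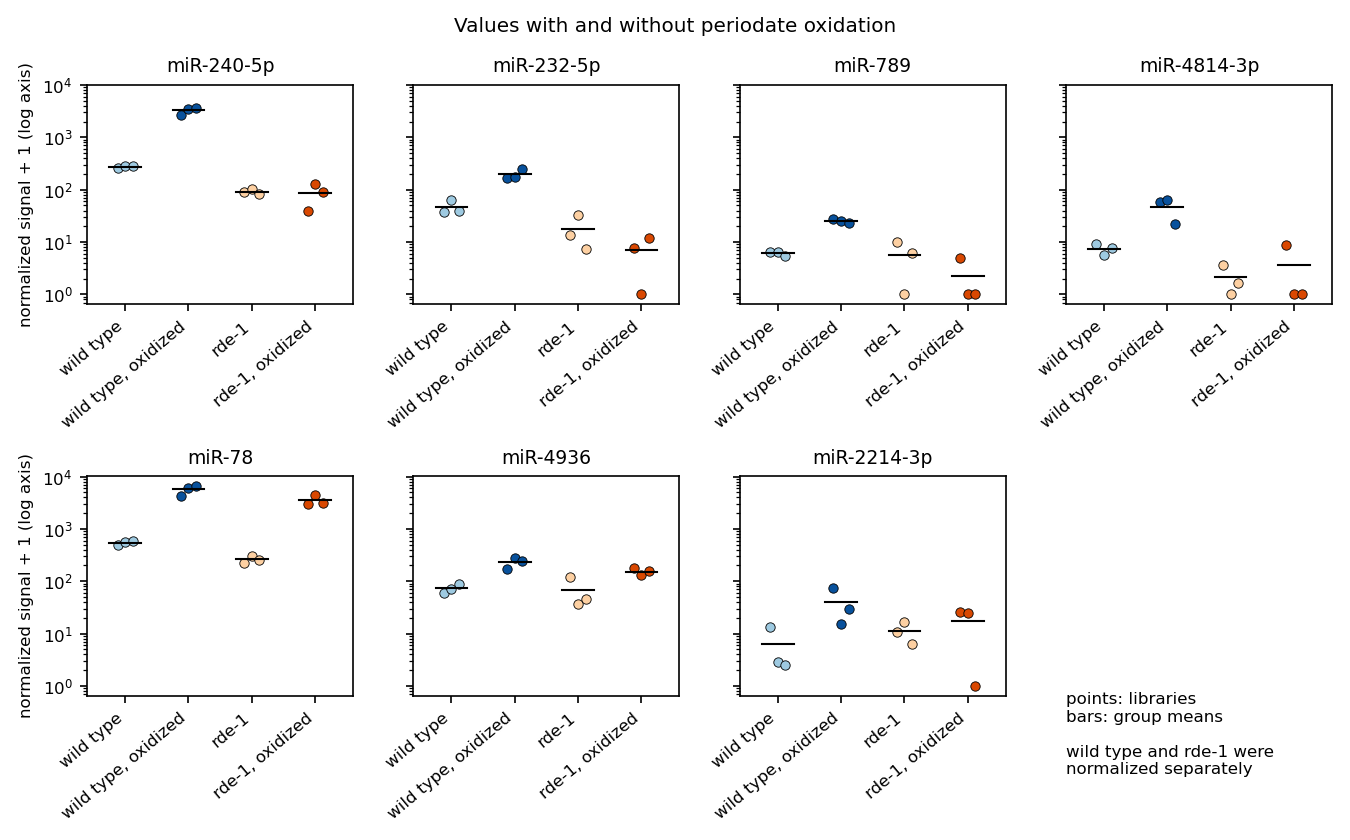
Normalized signal plus 1 (log axis) of each arm in untreated and oxidized libraries of wild type and rde-1 animals; points are libraries and bars are group means (n = 3). In wild type, the contrast that chose the arms, all oxidized libraries lie above the untreated ones, and in rde-1 this holds for miR-78 and miR-4936.

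Of the 3 opposite arms tested in wild type, 2 were called lower after oxidation, where 90.6% of microRNA arms were called lower. miR-240-3p fell from 1488 to 78.8 in wild type (log2 -4.33, SE 0.33). miR-232-3p fell from 305 to 4.66 (log2 -6.30, SE 0.80, limma adjusted p = 0.000185). miR-2214-5p was 157 untreated and 114 oxidized (log2 -0.43, SE 0.23, limma adjusted p = 0.117), with no overlap of the groups. miR-4814-5p was below the filter, with 23, 14 and 23 reads untreated and 1, 0 and 2 oxidized. miR-789, miR-78 and miR-4936 have no listed opposite arm in these tables.

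The share of the oxidation-resistant arm in its hairpin's signal shows the same values without any scaling between libraries. miR-240-5p made up 14.2% to 17.8% of both arms in untreated and 96.6% to 98.8% in oxidized wild type libraries. miR-232-5p made up 10.7% to 16.7% and 94.9% to 100%, and miR-4814-3p made up 26.3% to 28.1% and 93.1% to 100%. miR-2214-3p stayed the minor arm, with 1.05% to 5.98% untreated and 10.7% to 40.8% oxidized.

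In rde-1 animals, which carry a mutant RDE-1 Argonaute, the same oxidation was read in libraries that had no part in the choice. Of the 7 arms, 5 passed the filter and 2 were called higher (miR-78 and miR-4936), where 31.1% of 12032 features and 1.44% of 209 microRNA arms were called higher. The tested arms had a median log2 difference of -0.24 and all tested features one of 0.03. The class medians were -2.42 for microRNA arms, 2.32 for piRNAs and 3.34 for ERGO-1 class loci. Of all calls, 54.5% were on the higher side as deposited, 99.5% with equal microRNA totals and 3.58% with equal piRNA totals, under which miR-78 had a difference of 0.09 and the other 4 tested arms were called lower. The tables of wild type and rde-1 were normalized separately, so the genotypes were not tested against each other.

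miR-78 was 224, 299 and 256 in untreated rde-1 libraries and 2960.2, 4513 and 3136 in oxidized ones. All oxidized libraries lay above all untreated ones, and the increase was 13.6-fold (log2 3.75, SE 0.21, limma adjusted p = 1.29e-06, n = 3 per group). miR-4936 was 122, 35.3 and 45.4 untreated and 175, 128 and 153 oxidized. These groups were apart by 128 against 122, and the difference passed the threshold (log2 1.36, SE 0.48, limma adjusted p = 0.0375). That call ended with TMM factors (adjusted p = 0.0504), with equal library totals (0.0679), with edgeR (0.0913) and DESeq2 (0.0522) on recovered reads, and without each library in turn other than untreated replicate 1 (0.0568 to 0.111).

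miR-240-5p was 87.9, 101 and 83.1 in untreated rde-1 libraries and 38.7, 127 and 89.8 in oxidized ones. The groups overlapped, and the difference did not pass the threshold (log2 -0.24, 95% interval -1.31 to 0.83, limma adjusted p = 0.678, n = 3 per group). With libraries scaled to equal microRNA totals the difference was 2.22 (adjusted p = 0.00103), and the wild type value was then 7.11. Its mean was 90.7 in untreated rde-1 and 274 in untreated wild type libraries, levels that come from separately normalized tables.

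miR-232-5p was 12.4, 32.2 and 6.49 untreated and 6.77, 0 and 11.1 oxidized in rde-1 (log2 -1.72, 95% interval -4.50 to 1.07, limma adjusted p = 0.252). The groups overlapped. The remaining arms were low, and 3 reads in an oxidized rde-1 library correspond to a signal of 2.57 to 3.504. miR-789 had 10, 0 and 8 reads untreated and 4, 0 and 0 oxidized, and miR-4814-3p had 3, 0 and 1 untreated and 8, 0 and 0 oxidized. miR-2214-3p was 9.76, 15.3 and 5.19 untreated and 25.1, 23.4 and 0 oxidized (log2 -0.26, 95% interval -3.35 to 2.83, limma adjusted p = 0.880). In a fit with no filter, in which 34% of features were called, the differences of miR-789 (log2 -1.22, SE 1.12, limma adjusted p = 0.440) and miR-4814-3p (log2 0.18, SE 0.99, limma adjusted p = 0.897) did not pass the threshold.

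Of 4 opposite arms tested in rde-1, 2 were called lower after oxidation, where 152 of 209 microRNA arms were called lower. miR-240-3p fell from 1124 to 139 (log2 -3.25, SE 0.54, limma adjusted p = 0.00132) and miR-232-3p from 340.3 to 25.1 (log2 -4.59, SE 1.05, limma adjusted p = 0.00622). miR-4814-5p was 26.8 untreated and 4.42 oxidized (log2 -2.83, limma adjusted p = 0.0505), and miR-2214-5p was 79.8 and 72.0 (log2 -0.13, limma adjusted p = 0.907), with overlapping groups. The share of miR-240-5p in its hairpin was 4.64% to 11.7% untreated and 24.5% to 69.0% oxidized in rde-1, below the 96.6% to 98.8% of oxidized wild type libraries. The share of miR-232-5p in oxidized rde-1 libraries spread from 0% to 92.9%, on few reads. miR-5549-3p, the arm just outside the threshold in wild type, was 3.55, 0 and 0.65 untreated and 22.2, 35.04 and 18.0 oxidized in rde-1. It was the remaining arm called higher there (log2 3.68, SE 1.06). It passed the filter only through the oxidized libraries, so this call is a description only.

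**Figure D2:**
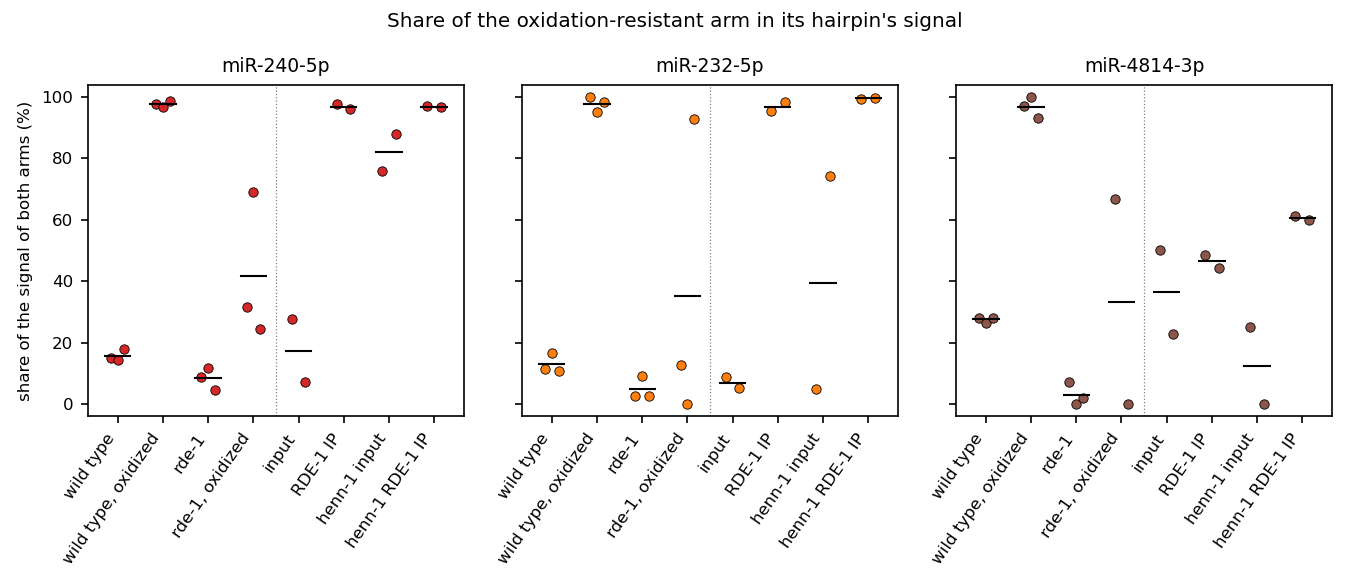
Share of the oxidation-resistant arm in the summed signal of both arms of its hairpin (percent) in each library of the oxidation set (left of the dotted line) and the RDE-1 set (right); points are libraries and bars are means. miR-240-5p and miR-232-5p reach 94.9% or more in oxidized wild type libraries and in RDE-1 IPs, and are spread in oxidized rde-1 libraries.

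The RDE-1 set asked which of the arms co-purify with RDE-1, and whether that depends on henn-1. Of the 7 arms, 4 passed the filter there (miR-240-5p, miR-232-5p, miR-789 and miR-4814-3p) and each was called higher in the IP than in its input, with and without henn-1. With henn-1 present 27.1% of 155 tested arms were called higher, and without it 31%. miR-4814-3p in both genotypes, and miR-232-5p in animals with henn-1, had inputs far below the filter and passed it through the IPs, so these 3 calls were fixed by the filter and are a description only. In log2 difference, miR-240-5p ranked 2 of 155 and miR-232-5p ranked 5 of 155 with henn-1 present.

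miR-240-5p was 125 and 47.5 in the inputs and 52943 and 58176 in the IPs of animals with henn-1. Both IPs lay far above both inputs (log2 9.47, SE 0.93, limma adjusted p = 1.16e-06, n = 2 per group). It was the most abundant microRNA arm of these IPs and held 13.5% of their microRNA signal, against 0.082% in the inputs. Without henn-1 it was 169.97 and 775 in the inputs and 34808 and 34514 in the IPs (log2 6.57, SE 0.93, limma adjusted p = 5.37e-05). It then ranked 6 of 368 in the IPs, with 6.11% of the microRNA signal.

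miR-232-5p was 3.11 and 4.67 in the inputs and 1468 and 3524 in the IPs with henn-1 present (log2 8.88, SE 1.15). Without henn-1 it was 8.83 and 93.1 in the inputs and 7154 and 8336 in the IPs (log2 7.99, SE 1.15, limma adjusted p = 5.62e-05). In both genotypes the IPs lay above the inputs in all libraries. miR-789 was 12.4 and 15.2 in the inputs and 2076 and 6089 in the IPs with henn-1 (log2 7.92, SE 1.27, limma adjusted p = 0.000107). Without henn-1 it was 5.78 and 159.6 in the inputs and 8061 and 12669.7 in the IPs (log2 8.26, SE 1.27, limma adjusted p = 7.40e-05).

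miR-4814-3p was barely present in the inputs, at 0.09 and 0.10 with henn-1 and 0.24 and 0 without it. In the IPs it was 36.6 and 32.1 with henn-1 (log2 5.01, SE 0.72) and 56.0 and 67.5 without it (log2 5.81, SE 0.72). Without henn-1 input 2, the differences in animals without henn-1 were 7.66 for miR-240-5p, 9.62 for miR-232-5p, 10.54 for miR-789 and 5.65 for miR-4814-3p. The remaining input held miR-232-5p at 8.83, miR-789 at 5.78 and miR-4814-3p at 0.24. These arms were then under 10 in the input and passed the filter through the IPs, so their values there are a description only. The opposite arm of miR-4814-3p was higher in the IPs as well: miR-4814-5p had log2 differences of 5.07 with henn-1 and 3.91 without it (SE 0.79 for each). Its inputs were at most 3.36, and it too passed the filter through the IPs, so these values are a description only. Without henn-1 input 2 the second value was 4.58. miR-4814-3p made up 44.4% to 48.5% of its hairpin in the IPs with henn-1. In the IPs without henn-1 it made up 59.9% to 61.0%. miR-2214-3p was the minor arm of its hairpin in the IPs with henn-1, at 26.1% to 44.2%. miR-240-5p made up 95.9% to 97.6% and miR-232-5p 95.3% to 98.2% of both arms with henn-1 present. miR-240-3p had a difference of 1.98 (limma adjusted p = 0.151) and miR-232-3p one of 0.35 (0.844). Without henn-1 miR-240-3p was called higher in the IPs (log2 3.94, limma adjusted p = 0.00345), also without henn-1 input 2 (4.42, 0.00598).

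miR-78, miR-4936 and miR-2214-3p stayed below the filter and low in the IPs. miR-78 was 27.95 and 6.01 in the inputs and 9.86 and 1.44 in the IPs with henn-1, and 17.6 and 0 in the inputs and 5.32 and 5.18 in the IPs without it. miR-4936 was 5.24 and 1.85 in the inputs and 0 and 0.72 in the IPs with henn-1. miR-2214-3p was 3.82 and 2.00 in the inputs and 9.44 and 6.47 in the IPs with henn-1. None of the 3 arms was called in a fit with no filter in either genotype (limma adjusted p = 0.513 to 0.871), in which 15.1% of 338 arms were called with henn-1 and 22.5% without it. In animals without henn-1 the differences in that fit were 0.53 for miR-78, -0.35 for miR-4936 and 1.03 for miR-2214-3p. Without henn-1 input 2 they were -1.57, -2.12 and -0.74, and none was called (adjusted p = 0.405, 0.100 and 0.390).

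**Figure D3:**
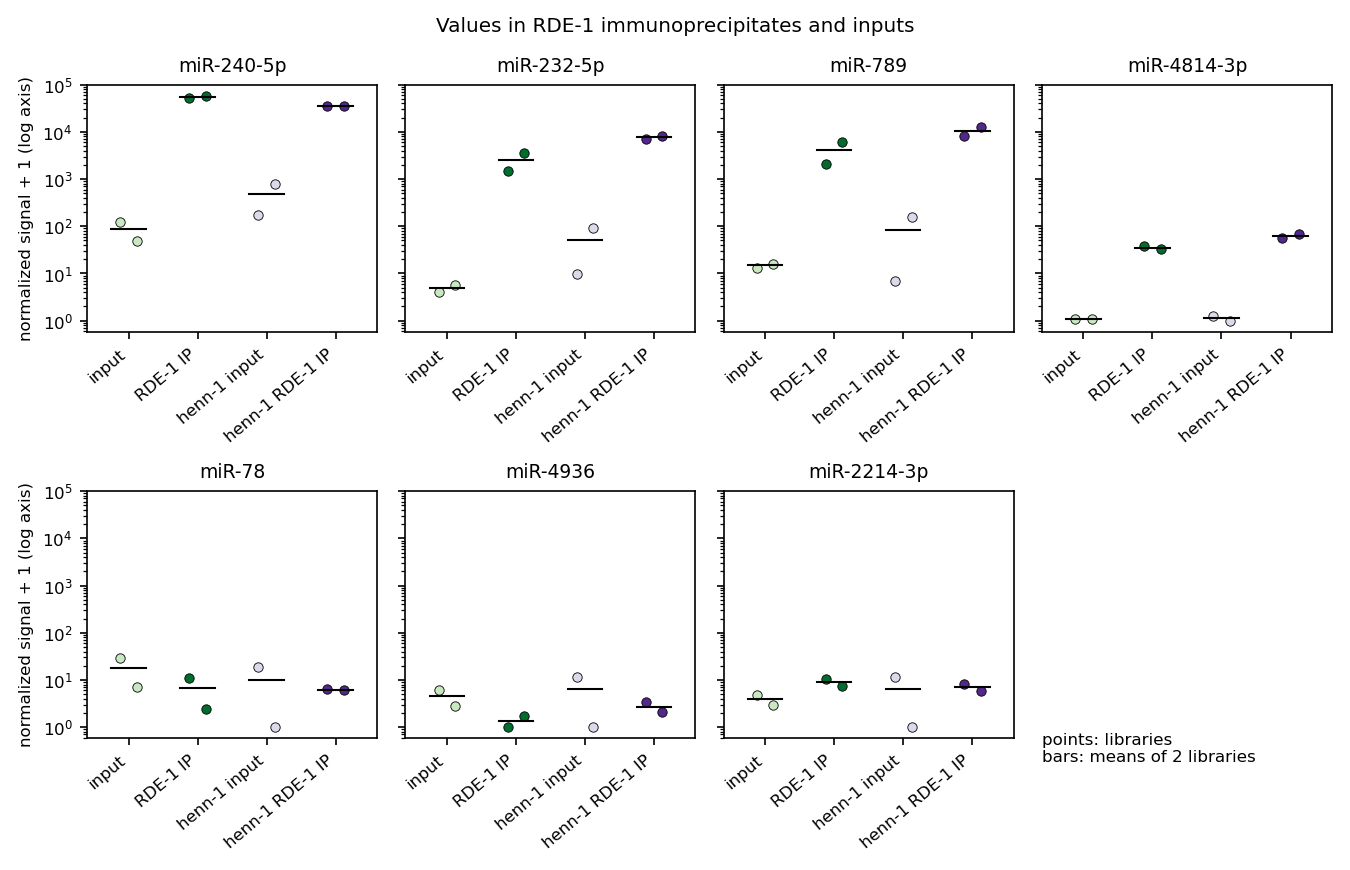
Normalized signal plus 1 (log axis) of each arm in inputs and RDE-1 IPs of animals with and without henn-1; points are libraries and bars are means (n = 2). miR-240-5p, miR-232-5p, miR-789 and miR-4814-3p lie higher in every IP than in every input, and miR-78, miR-4936 and miR-2214-3p stay at or below 9.86 in all IPs.

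Whether the enrichment itself depended on henn-1 was tested as an interaction of IP and genotype. limma called 0 of the 155 arms (0%), and 18 had an unadjusted p under 0.05, miR-240-5p among them. For miR-240-5p the enrichment was 2.90 lower on the log2 scale without henn-1 (difference -2.90, 95% interval -5.70 to -0.11, unadjusted p = 0.0428, limma adjusted p = 0.411). For miR-232-5p the difference was -0.89 (95% interval -4.35 to 2.56), for miR-789 it was 0.34 (-3.48 to 4.16) and for miR-4814-3p it was 0.80 (-1.35 to 2.96). Without henn-1 input 1, the difference of miR-240-5p was -3.99 (limma adjusted p = 0.0348), in a fit that called 17.4% of arms. The remaining input of that group was then replicate 2, the library that stood apart. Without replicate 2 in its place, the difference was -1.81 for miR-240-5p (limma adjusted p = 0.235) and 2.62 for miR-789 (0.179), and none of the 4 arms was called.

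The inputs, set against each other, gave no call among these arms with limma, where 5.16% of 155 arms were called; miR-240-5p (unadjusted p = 0.0298) and miR-232-5p (0.0349) were under 0.05 before adjustment. The log2 difference of henn-1 from wild type inputs was 2.22 for miR-240-5p (SE 0.93), 2.66 for miR-232-5p (SE 1.15) and 1.17 for miR-789 (SE 1.27), with limma adjusted p-values of 0.212, 0.212 and 0.665. The higher of the henn-1 inputs was replicate 2 for each of these arms. Without henn-1 input 1, 3 arms were called (miR-240-5p, miR-232-5p and miR-789; adjusted p = 0.0184, 0.0110 and 0.0304), in a fit that called 27.7% of arms. Without henn-1 input 2 the differences were 1.13, 1.03 and -1.12, and none was called.

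The IPs were also set against each other, a comparison added after the data were seen. limma called none of the 4 arms, where 0.645% of arms were called and 7 of 155 had an unadjusted p under 0.05, none of the 4 among them. miR-240-5p was lower without henn-1 (log2 -0.68, SE 0.93, limma adjusted p = 0.817), and miR-232-5p (1.76, SE 1.15), miR-789 (1.51, SE 1.27) and miR-4814-3p (0.83, SE 0.72) were higher (adjusted p = 0.782 for each). Overlap of the IP groups is not given as a result, since the share of all arms with separate groups was not counted. With only the 4 IP libraries in the fit, each of the 4 was called in the same direction (adjusted p = 0.0373 for miR-240-5p, 0.00299 for miR-232-5p, 0.0105 for miR-789 and 0.0250 for miR-4814-3p), and 49.4% of 158 arms were called.

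Among the other microRNAs, arms enriched with RDE-1 fell on oxidation in wild type, as most microRNA arms did. With henn-1 present 38 further arms were called higher in the IP, of which 32 were tested for oxidation in wild type. Of these, 31 were called lower, with a median log2 difference of -3.14 and a highest value of -1.14. That 0 were called higher was fixed by the choice of the 7 arms, which took every arm called higher. The arms not called higher in the IP had a median of -3.66. miR-243-3p, the microRNA named with RDE-1, was 32.8 in the inputs and 15941 in the IPs with henn-1 (log2 8.88, SE 1.09, limma adjusted p = 9.92e-06), and fell on oxidation in wild type from 2502 to 1137 (log2 -1.14, SE 0.34, limma adjusted p = 0.0141). Its difference in rde-1 was -1.03 (SE 0.35, limma adjusted p = 0.0340). The largest enrichments of arms outside the 7 were those of miR-84-3p (log2 9.72) and miR-5592-3p (9.36) with henn-1, and of miR-4816-3p (8.49) and miR-5592-5p (7.94) without it. The last pair had values of 7.09 and 9.51 without henn-1 input 2. miR-4816-3p had a mean of 3 in the inputs without henn-1, below the filter, so its values are a description only.

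**Figure D4:**
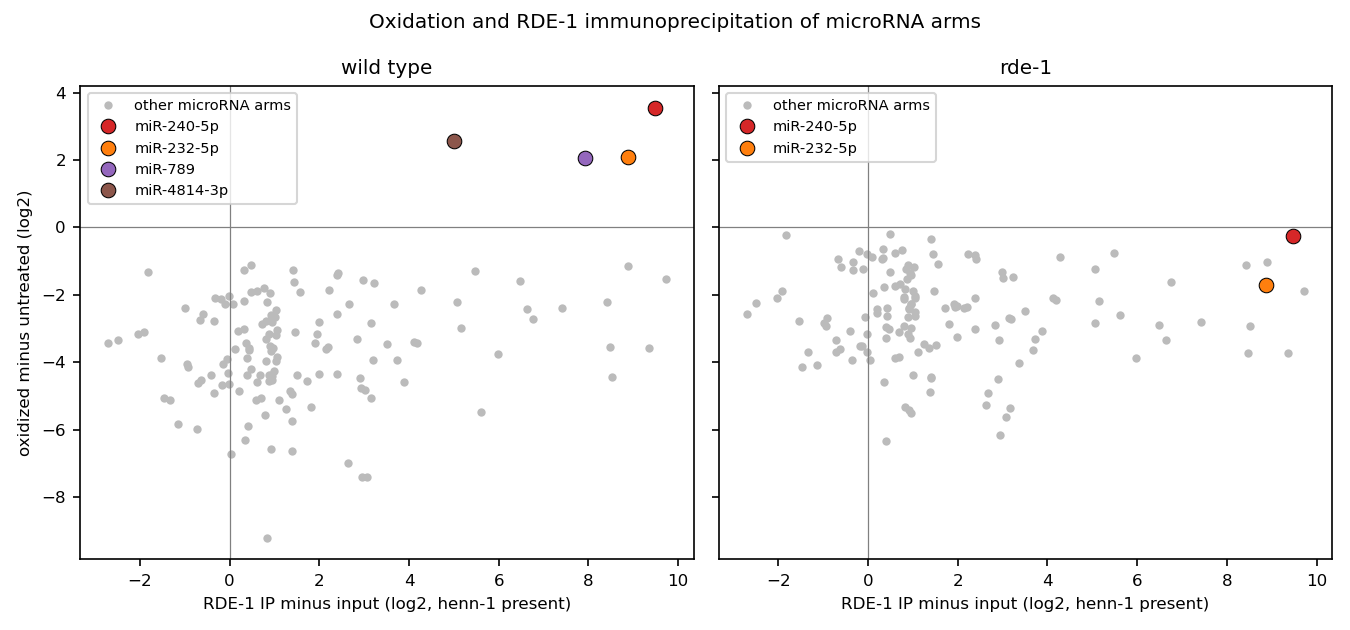
Log2 difference of oxidized minus untreated libraries (vertical axis) against that of RDE-1 IP minus input with henn-1 present (horizontal axis), for microRNA arms that passed the filter in both tables; left wild type, right rde-1. The 4 coloured arms lie between 2.06 and 3.56 on oxidation in wild type, while every grey arm lies below 0, and miR-240-5p and miR-232-5p lie at -0.24 and -1.72 in rde-1. The coloured arms were chosen for being higher on oxidation in wild type, so their separation in the left panel was fixed by the choice.

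In dissected gonads the arms differed in whether they were detected. miR-78 and miR-4936 were the arms with gonad levels above the filter, and both were called higher in henn-1 gonads, where 42% of 9454 features and 27.3% of 77 microRNA arms were called higher. miR-78 was 990.4, 950.2 and 809 in wild type and 1154, 1714 and 1588 in henn-1 gonads. The groups did not overlap (log2 0.68, SE 0.14, limma adjusted p = 0.00156, n = 3 per group). In wild type gonads it ranked 18 of 368 and took 1.19% of the microRNA signal. miR-4936 was 66.8, 52.4 and 74.2 in wild type and 181, 169 and 175 in henn-1 gonads (log2 1.44, SE 0.15, limma adjusted p = 1.29e-05), again with no overlap. The median log2 difference was 0.23 over microRNA arms, 2.90 over piRNAs and 0.14 over all features. Of all calls, 72.6% were on the higher side as deposited, 50.0% with TMM factors and 20.0% with equal piRNA totals. piRNAs took 3.17% to 3.47% of the listed signal in wild type and 15.5% to 16.8% in henn-1 gonads, and with libraries scaled to equal piRNA totals both arms were lower in henn-1 (miR-78 -1.68 and miR-4936 -0.89, both called).

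The other 5 arms were low in the gonad libraries and below the filter. In these libraries 3 reads correspond to a signal of 1.70 to 3.34. miR-240-5p had 3, 1 and 2 reads in wild type and 22, 23 and 10 in henn-1 gonads. It did not pass the filter, and in a fit with no filter, in which 53% of features were called, its difference was 2.18 (SE 0.48, limma adjusted p = 0.00324). miR-2214-3p had 2, 1 and 1 reads in wild type and 5, 5 and 10 in henn-1 (no filter, log2 1.26, SE 0.45, limma adjusted p = 0.0360). miR-232-5p had a single read in 1 library of each genotype, and miR-789 and miR-4814-3p were listed at 0 in all 6 libraries. Among the remaining microRNA arms, the largest increases in henn-1 gonads were those of miR-49-3p (5.62 to 17.6, log2 1.47) and miR-247-3p (7.02 to 15.0, log2 0.95). Both passed the filter only through the henn-1 libraries, so these values are a description only. In the gonad mRNA libraries, body muscle myo-3 was 51.5 to 69.1 in wild type and 133 to 188 in henn-1 and unc-54 was 163 to 243 and 307 to 521. Of the intestinal genes, elt-2 was at or below 1.05, while vit-2 ranged from 19.9 to 115 and vit-6 from 27.6 to 162 over the 6 libraries, and epidermal dpy-7 and rol-6 were at 0. The part of muscle and intestinal RNA in the values of miR-240-5p was not tested.

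**Figure D5:**
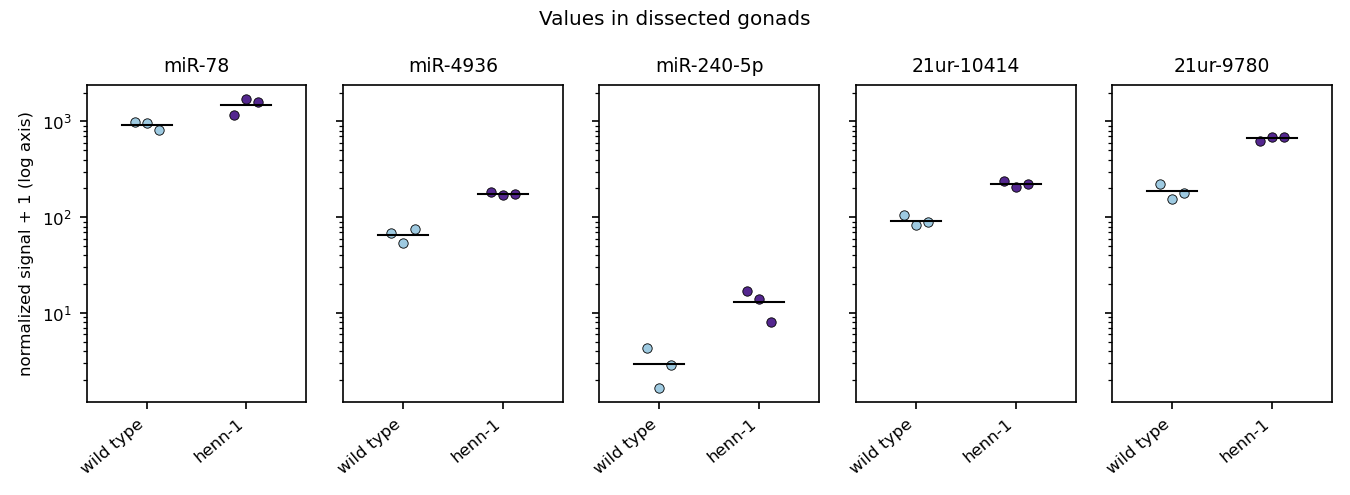
Normalized signal plus 1 (log axis) in wild type and henn-1 gonads for miR-78, miR-4936 and miR-240-5p and for the piRNAs 21ur-10414 and 21ur-9780, whose genes overlap mir-78; points are libraries and bars are means (n = 3). All 3 henn-1 libraries lie above the wild type libraries in each panel.

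The gene neighbourhoods differ between the arms as well. In RefSeq (WBcel235) the mir-78 gene overlaps the piRNA genes 21ur-10414 and 21ur-9780 and has 12 piRNA genes within 2 kb, while mir-240, mir-232, mir-4936, mir-4814 and mir-2214 have 0 and mir-789.1 has 1. mir-4814, mir-2214, mir-789.1 and mir-789.2 overlap protein-coding genes. RefSeq lists mir-78 and mir-4936 as microRNA genes. Reads of the overlapping piRNAs and of miR-78 may have been divided between them by the authors' counting.

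Both overlapping piRNAs moved in the direction of miR-78, as most piRNAs did. Called higher were 4176 of 5877 piRNAs on oxidation in wild type, 3520 of 5619 in rde-1 and 3354 of 3448 in henn-1 gonads. In gonads both lay below the lower quartile of piRNAs, 2.07. On oxidation 21ur-10414 rose by 1.77 in wild type (SE 0.31) and by 3.02 in rde-1 (SE 0.56), and 21ur-9780 by 2.54 (SE 0.30) and 2.99 (SE 0.35), all on the log2 scale with limma adjusted p-values from 0.000127 to 0.00223. In henn-1 gonads 21ur-10414 rose by 1.28 (SE 0.12, limma adjusted p = 9.06e-06) and 21ur-9780 by 1.86 (SE 0.12, limma adjusted p = 5.88e-07). With equal piRNA totals both were called lower there, at -1.07 and -0.49, as miR-78 was. miR-78 was the most abundant of the 3 in wild type gonads, at 917 against 91.3 for 21ur-10414 and 186 for 21ur-9780.

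Across the 26 small RNA libraries of the 4 tables, the profiles of the arms fell apart in the way the separate results do. Pearson's r of log2 values centred within each table lay between 0.84 and 0.92 among miR-240-5p, miR-232-5p, miR-789 and miR-4814-3p, and was 0.74 between miR-78 and miR-4936. Between these groups it lay between -0.31 and 0.13. miR-2214-3p had values between 0.18 and 0.47 with the others. The libraries share the contrast that chose the arms and the IP contrasts, and their depths differ, so these values describe the libraries only. Of 66 other arms, miR-5592-3p (r = 0.59), miR-5592-5p (0.58) and miR-238-3p (0.53) were most like the mean profile of the 7.

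The genes that make, load, tail or degrade small RNAs were read in the gonad mRNA libraries, from a list chosen with earlier results of these data known. All 21 were tested: 0 were called higher and 8 lower, where 7.44% of mRNAs were called higher and 12.4% lower, and the median log2 difference was -0.16 against 0.02 over all mRNAs. henn-1 itself was one of the 8 (log2 -3.24, SE 0.05). The others were small: dcr-1, which encodes Dicer, went from 5269 to 4589 (log2 -0.20, SE 0.04, limma adjusted p = 0.0103), and alg-5, a microRNA Argonaute, from 4352 to 3796 (log2 -0.20, SE 0.04, limma adjusted p = 0.0114). rde-1 was 3968 and 3657 (log2 -0.12, SE 0.04, limma adjusted p = 0.0668), prg-1 was 10549 and 9448 (log2 -0.16, SE 0.06, limma adjusted p = 0.0679) and ergo-1 was 2916 and 2814 (log2 -0.05, SE 0.04, limma adjusted p = 0.338). The count of 8 was 4 without henn-1 mRNA library 2 and 5 without wild type mRNA library 3. The germline markers in the same libraries were also lower in henn-1 in part: rme-2, the yolk receptor of oocytes, was 32921 to 33921 in wild type and 27058 to 28730 in henn-1, and pgl-1, a P granule gene, was 11466 to 12762 and 10379 to 11077. gld-1 was 2726 to 3332 and 2550 to 2654, and puf-5 was 6547 to 7346 and 5984 to 6481. The groups overlapped for glh-1 alone of the 5 germline markers, at 8112 to 10311 and 7681 to 8981. Their part in the values of the listed genes was not tested.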

How the data were processed

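Small RNA and mRNA libraries were read from tables of normalized signal deposited by the authors. Per the submitters' processing notes, DESeq2 1.18.1 was used for the oxidation and gonad tables, and Trimmomatic 0.35, STAR 2.5.0a and RSEM 1.3.0 for mRNA. No small RNA aligner or genome build is named in the sources used here, nor is the scaling of the RDE-1 table. In the oxidation and gonad small RNA tables each signal deposited was a whole multiple of 1 step per library (100% of values within 0.1), so reads were recovered. An arm listed more than once was counted once.

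Differences were fitted with limma 3.58.1 (R 4.3.3) with a trend on log2(signal + 1), over all features with a mean of at least 10 over the libraries fitted, with Benjamini-Hochberg adjustment over all features tested and a threshold of 0.05. The RDE-1 fit held all 8 libraries in 4 groups of 2. Intervals are 95% t intervals of the fit. The 7 arms passed the filter in wild type, 5 in rde-1, 4 in the RDE-1 set and 2 in gonads. On recovered reads edgeR 4.0.16 called 9064 features in wild type, 6239 in rde-1 and 6316 in gonads, and DESeq2 1.42.0 was run as well. Other alternatives were the pseudocount, the filter, 4 scalings, a replicate block and leaving out each library. The fits were tested on simulated data.

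The arms and lists were chosen with earlier results of these data known. Besides the 7 arms, the text names the arms next to the threshold, miR-243, the 3 arms most like the mean profile, and up to 2 arms of largest increase per comparison among called arms with groups that do not overlap. Opposite arms, overlapping piRNAs and miR-786-3p were named after their values were seen. Floors of 3 reads per library cover counting error only. Sequences are not printed, and the libraries of other Argonautes were not used here.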

Additional observations from a re-analysis of the deposited data

Results flagged for a closer look

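For a pair of arms every oxidized library lay above the untreated mean in wild type and below it in rde-1. miR-232-5p went from a mean of 45.6 to 196.5 in wild type and from 17.0 to 5.96 in rde-1. miR-789 went from 5.11 to 24.4 in wild type and from 4.69 to 1.29 in rde-1, where 2 of the oxidized libraries had 0 reads. The difference between the genotypes was not tested, since the tables were normalized separately and the wild type values chose the arms.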

How the results depend on the processing

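In wild type the median log2 difference of the 7 arms, 2.56 as reported, was 2.02 with a pseudocount of 5, 3.01 with edgeR, 2.89 with DESeq2, 5.68 with equal microRNA totals and 2.23 to 2.90 with single libraries left out. It was -0.75 with equal piRNA totals, a scaling added after the data were seen, under which miR-232-5p (-1.41), miR-789 (-1.18), miR-4814-3p (-0.75), miR-78 (-0.17), miR-4936 (-1.84) and miR-2214-3p (-0.27) turned negative. In rde-1 the number called, 2 as reported, was 1 with TMM factors, with equal library totals, with edgeR and with DESeq2, 1 to 2 with single libraries left out, and 4 with equal piRNA totals, all lower, where miR-4936 was -2.25. With equal microRNA totals miR-240-5p was 2.22 there. The number called in the IPs was 4 with and without henn-1 under all alternatives run that left out no single library. Part of these calls were fixed by the filter, as given above. The interaction count of 0 became 1, and that of the inputs 3, without henn-1 input 1, so the ranges with single libraries left out were 0 to 1 and 0 to 3. In gonads the number called, 2 as reported, was 4 with no filter, and miR-78 (-1.68) and miR-4936 (-0.89) turned negative with equal piRNA totals. Over all gonad features 1501 were called lower as reported and 2773 with edgeR. The machinery count of 8 ranged from 4 to 10 with single libraries left out. Causes were not tested, except that a fit with no filter tests more arms.

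Whether replicate numbers pair the libraries was not settled, and the main fits did not use them. Same-numbered deviations correlated at 0.03 to 0.06 in wild type, 0.01 to 0.21 in rde-1 and -0.12 to 0.12 in gonads. In wild type each untreated library was still best matched by the oxidized one of its own number. In rde-1 this held for replicate 3 only. With the replicate block the counts were 2 in rde-1, 4 and 4 in the IPs, 0 for the interaction, 0 for the inputs, 2 in gonads and 10 for the machinery, and the wild type median was 2.56. In the RDE-1 set the correlation was 0.44 without henn-1 and -0.27 with it, and with the numbers crossed there 4 arms were again called. In that set equal library and equal microRNA totals are the same scaling, and count tests were not run on its normalized values. miR-789, miR-4814-3p and miR-2214-3p rest on few reads in rde-1 and gonads. With equal piRNA totals, the piRNAs 21ur-10414 (-1.07) and 21ur-9780 (-0.49) were lower in henn-1 gonads.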
